A study of Mus musculus with 1183 samples.

Results

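Tnf, the receptors Tnfrsf1a and Tnfrsf1b, the inhibitors Nfkbia, Nfkbiz and Tnfaip3, and the NF-kappaB subunit genes Nfkb1, Nfkb2, Rel and Relb were described across the immune cells of newborn mouse lungs. These 10 genes were taken by symbol from the 18072 genes of the count table, and all 10 passed the filter on low counts. The study measured single-cell RNA of the distal lung at postnatal day 7 in hyperoxia, a raised oxygen level that injures the developing lung. Each of the 1183 libraries is 1 cell, of which 598 came from 1 female mouse and 585 from 1 male mouse. All cells shared the age and the hyperoxia, the labels name no strain or transgene, and no cells from normal oxygen were used here. Cells had been sorted as CD45 cells, the general surface mark of blood cells, except 10 that carry other gate labels. The groups compared are the authors' labelled cell subtypes: B cells, T cells, NK cells, IL cells, neutrophils, mast cells, a smaller group called mast cell II, basophils, DC I, DC II and DC III, and Mac I to Mac V. DC and Mac are read here as dendritic cells and macrophages, and IL is not spelled out in the labels. Cells of a subtype from 1 mouse are not replicates, so reads were summed per animal and subtype, and n is 2 animals throughout. Where a pair of values is given, the female animal comes first. Sex and animal cannot be told apart, and each p-value measures only the spread between these animals.

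TNF is an inflammatory cytokine made by activated immune cells, and it signals through a widely expressed receptor, TNFR1 (Tnfrsf1a), and a second receptor, TNFR2 (Tnfrsf1b), that is common on blood cells. In resting cells the NF-kappaB transcription factors are held in the cytoplasm by IkappaB proteins such as the product of Nfkbia, and TNF or microbial signals lead to its breakdown. NF-kappaB then switches on its own brakes, among them Nfkbia, Tnfaip3 (the ubiquitin-editing enzyme A20) and Nfkbiz (a nuclear IkappaB protein that modifies target choice). Nfkb1 and Rel belong to the fast classical arm, while Nfkb2 and Relb carry the slower non-classical arm and are known for their part in dendritic cell maturation.

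Depth per cell ran from 16753 to 7560179 reads, with a median of 1100966, and the 30 summed libraries held 6024429 to 235566546 reads. Mac I, with 1 cell, entered no test. Of the 13 subtypes with 4 markers each, 9 had all of them highest in their own cells. The exceptions were IL cells and Mac III, with 2 of 4, and DC II and Mac V, with 3 of 4. The NK cell group held 5 and 7 cells, and its animals stood apart from each other in several of the values given here. IL cells were also few, at 9 and 5 cells. Summed non-immune markers stayed at or below 219.4 CPM except in the male DC I library, at 10780 CPM. There 1 cell held 359733 reads of Sftpc, the surfactant gene of type II alveolar cells, or 22.5% of its 1600824 reads. Of the 1183 cells, 885 were sequenced in a run that both animals shared, and most of the others, all female, in another run. Levels are given as CPM, a gene's reads in a summed library scaled to a library total of 1000000 reads. CPM compares a gene between subtypes and does not compare genes of different length.

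Tnf, both receptors, all 3 inhibitors and the subunits Nfkb2, Rel and Relb differed among the 15 subtypes, while Nfkb1 did not pass the test. That is 9 of 10 genes, against a background of 34.3% of the 15600 genes tested (quasi-likelihood F test of edgeR, adjusted p below 0.05). The adjusted p was lowest for Nfkbiz at 1.2e-05 and highest among the 9 for Tnf at 0.0338, and for Nfkb1 it was 0.108. The call of Tnf was lost at an adjusted p of 0.109 when only the shared run was used. It was also lost without either library of B cells, Mac II, Mac III, T cells or mast cells, up to an adjusted p of 0.0866. Nfkb1 passed with DESeq2, at an adjusted p of 0.0273, with voom, at 0.00085, and without both NK cell libraries, at 0.0238. The ratio between the animals had a median over subtypes of 1.29 for Tnfrsf1a, the most even gene, and of 2.10 for Relb.

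**Figure D1:**
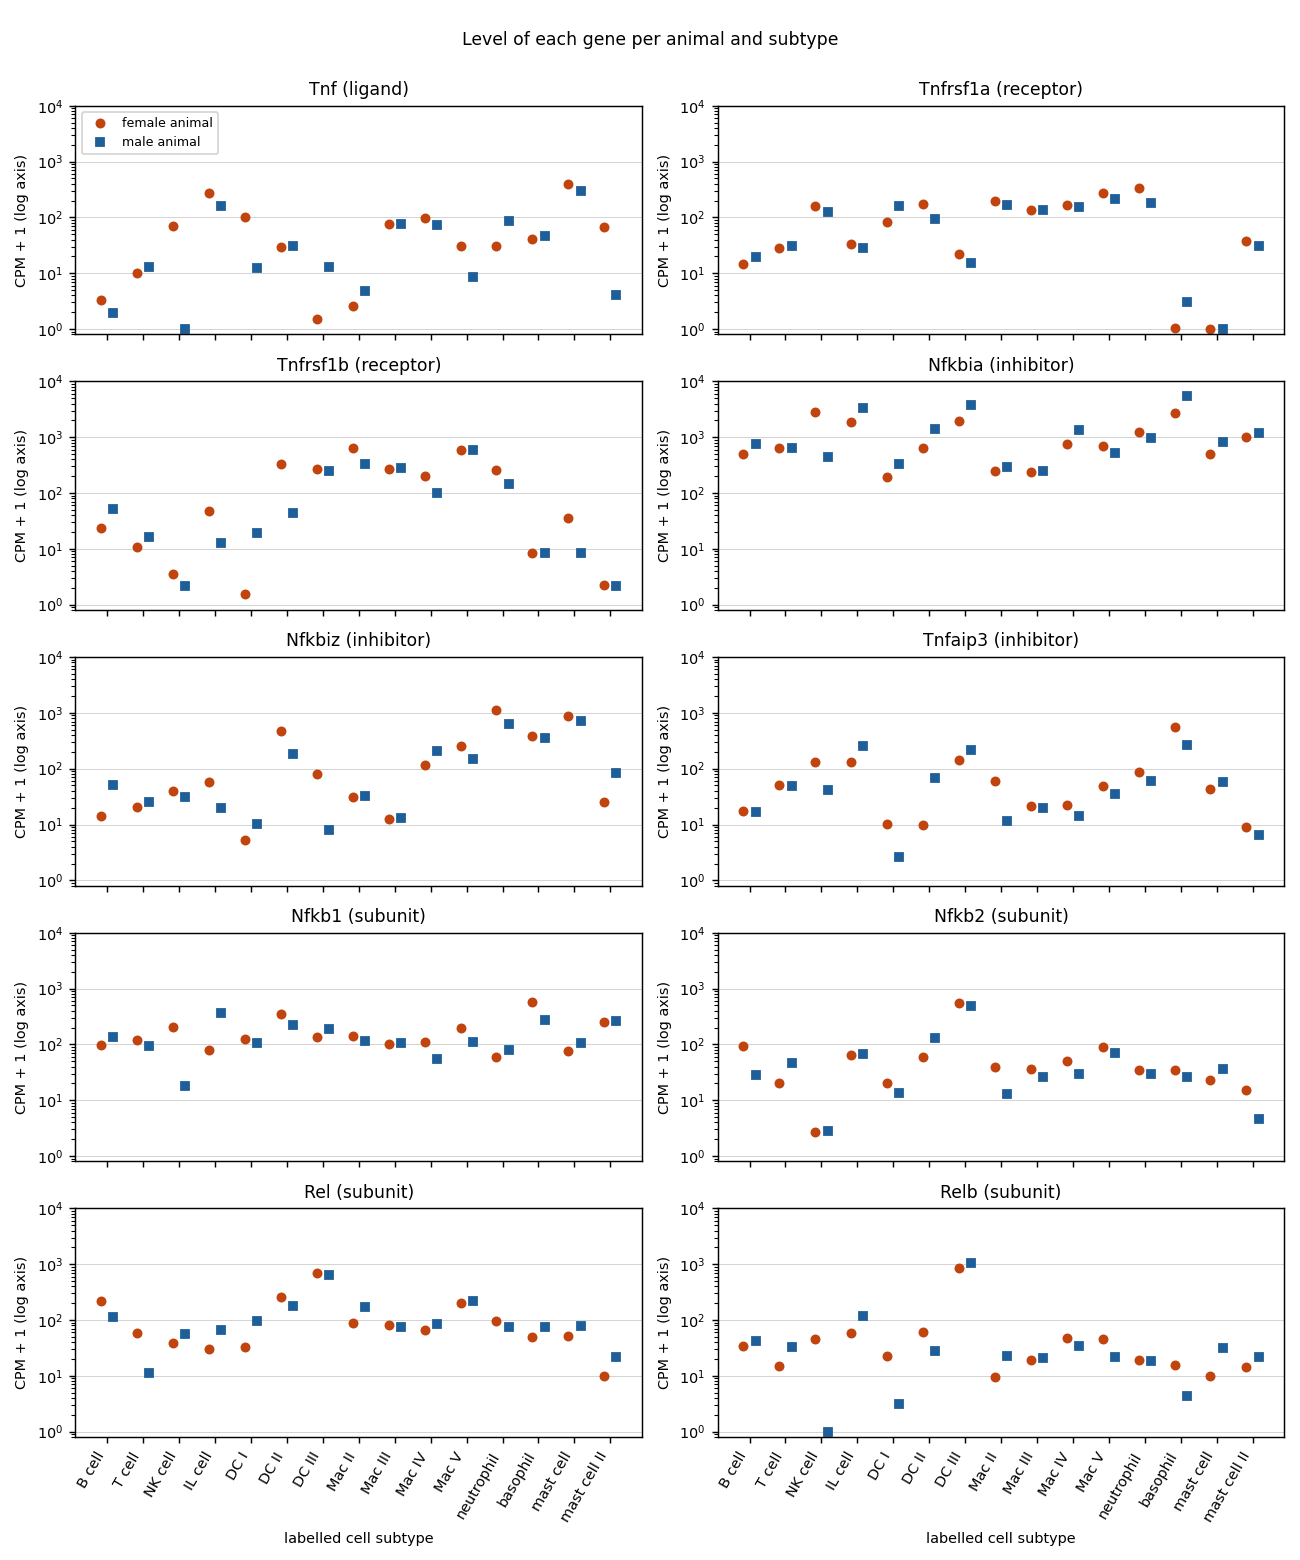
Level of each gene in the 15 labelled subtypes as CPM + 1 on a log axis, with 1 point for the female and 1 for the male animal. Relb, Nfkb2 and Rel peaked in DC III in both animals, Tnf in mast cells, and Tnfaip3 in basophils.

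Tnf, the ligand, was highest in mast cells, at 390.5 CPM (female) and 292.8 CPM (male). Both values lay above those of every other subtype. IL cells, with 9 and 5 cells, came next at 272.96 and 156.5 CPM, again above both values of each lower subtype. Mac IV followed at 95.04 and 73.35 CPM and Mac III at 74.87 and 73.45 CPM. Below IL cells no neighbours in the order were separated by both animals. The animals disagreed in several subtypes: DC I held 100 and 11.2 CPM, mast cell II 65.9 and 3.06 CPM, and NK cells 68.4 CPM in the female against 0 reads in the male, where 3 reads would be 0.498 CPM. B cells were lowest at 2.25 and 0.897 CPM. Over all 1183 cells, 30.7% had at least 1 Tnf read.

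Tnf reads were spread over most mast cells and over few basophils or neutrophils. After each cell was thinned to 100000 reads, 76.9% of 39 female mast cells (exact 95% interval 60.7% to 88.9%) and 14 of 20 male mast cells (45.7% to 88.1%) kept a Tnf read. Without thinning 31 of 39 and 16 of 20 had one. Single mast cells had medians of 145.4 and 188.8 CPM, female before male, and reached 4361 and 1406 CPM. In basophils only 14.7% and 10.5% of cells kept a Tnf read, and 1 cell held 73.1% of the female and 85.9% of the male basophil Tnf reads. Neutrophils likewise kept one in 3.64% and 11.5% of cells. Mac III differed from these, with a Tnf read in 41.4% and 37.98% of cells.

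Tnfrsf1a, which encodes TNFR1, was read in every subtype but mast cells. Neutrophils had 331.4 and 176.6 CPM, Mac V 276.996 and 212.8 CPM, and Mac II 194.8 and 166.4 CPM. Values of Mac IV, NK cells, DC II, Mac III and DC I lay between 83.1 and 173.8 CPM, and those of mast cell II, IL cells, T cells, DC III and B cells between 13.7 and 36.2 CPM. Both Mac V values were above those of every lower subtype, and DC I and the 7 subtypes before it were separated from mast cell II and the rest. Female basophils had 3 reads and male ones 39, of which all 39 came from 1 cell. The 59 mast cells had 0 Tnfrsf1a reads among 89360446. With 3 reads as the limit (0.0336 CPM over both animals), the level in mast cells was at least 18.1-fold lower than in basophils. It was at least 1022-fold lower than in mast cell II, a group low in mast cell markers, and at least 7572-fold lower than in Mac V.

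Tnfrsf1b, which encodes TNFR2, was highest in Mac V and Mac II. Mac V had 596 and 597 CPM, Mac II 652 and 332.02 CPM, Mac III 268.2 and 274.7 CPM and DC III 266.8 and 249.5 CPM. Mac V and Mac II overlapped, and both were above Mac III, which in turn was above DC III in both animals. DC II was uneven at 330 and 42.9 CPM. DC I had 0.541 and 17.9 CPM, NK cells 2.56 and 1.16 CPM, and mast cell II 1.20 and 1.13 CPM. In Mac V, 89.4% and 88.6% of cells kept a Tnfrsf1b read after thinning. In the summed reads divided by the merged length of all annotated exons, Tnfrsf1b exceeded Tnfrsf1a in 15 of 30 libraries. Its ratio to Tnfrsf1a per length was 8.53 and 11.9 in DC III, 1.46 and 1.91 in Mac V, and 0.525 and 0.553 in neutrophils.

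Many single macrophages and few single neutrophils carried reads of both receptors. With at least 10 CPM of each, 69.8% of female and 72.6% of male Mac III cells carried both, as did 23 of 27 and 16 of 20 Mac II cells. In Mac V the counts were 44 of 66 and 20 of 45, and in Mac IV 34 of 63 and 33 of 79. Only 8 of 56 female and 7 of 78 male neutrophils carried both. Their median depths, 616659 and 571915 reads, were below those of Mac III, 1065415 and 1151123 reads, and the part of depth in this difference was not tested.

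Nfkbia, the classical IkappaB inhibitor, had its highest levels in basophils (2660 and 5492 CPM), DC III (1942 and 3806 CPM) and IL cells (1859 and 3307 CPM). All 3 subtypes overlapped each other. NK cells spanned 2777 and 447 CPM. Neutrophils had 1252 and 957 CPM, and Mac III was lowest in mean at 240.9 and 249.1 CPM. Only Mac V and Mac II, among neighbours, were separated by both animals, at 692 and 512 against 249.9 and 288.5 CPM. Nfkbia was the most widely read of the 10 genes, with a read in 976 cells (82.5%).

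Tnfaip3 was highest in basophils, at 557 and 265.6 CPM, above every other subtype in both animals. IL cells had 128.97 and 253.4 CPM and DC III 145.1 and 218.3 CPM, and these groups overlapped. Both DC III values were above those of NK cells (130 and 41.3 CPM). DC I was lowest at 9.39 and 1.57 CPM. In basophils 91.2% of female and 73.7% of male cells kept a Tnfaip3 read after thinning.

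Nfkbiz was highest in neutrophils and mast cells, which overlapped at 1111 and 629 CPM against 869 and 723 CPM. Basophils came next at 381.2 and 360.1 CPM, below both values of mast cells. Mac III, at 11.4 and 11.8 CPM, and DC I, at 4.17 and 9.02 CPM, were the lowest. All 59 mast cells kept an Nfkbiz read after thinning, with medians of 560 and 531 CPM in single cells. At 10 CPM or more of each gene, 29 of 39 female and 15 of 20 male mast cells carried Tnf and Nfkbiz together.

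The 3 subtypes with the highest Nfkbiz also had the highest sums of immediate early genes. Summed over Fos, Fosb, Jun, Junb, Egr1, Ier2, Atf3, Dusp1, Hspa1a and Hspa1b, which respond within minutes to stimulation and also to tissue handling, the level was 15878 and 17742 CPM in mast cells. It was 16331 and 16185.5 CPM in female and male neutrophils, and 17152 and 13297 CPM in basophils. Mac III had 1661 and 1217 CPM and DC III 1930 and 1461 CPM. All 10 early genes differed among subtypes, beside 34.3% of the 15600 genes tested. The part of the early genes in the levels of Nfkbia, Nfkbiz and Tnf was not tested.

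The subunit genes Relb, Nfkb2 and Rel were each highest in DC III, above every other subtype in both animals. How many of all genes peak in this way was not counted. Relb had 855 and 1040 CPM there, and IL cells came next with 57.7 and 115.8 CPM. The mean of DC III was 42.1 times that of the median subtype. Nfkb2 had 550 and 492 CPM in DC III and at most 128.7 CPM elsewhere, in the male DC II library. Rel had 699 and 644 CPM in DC III, followed by DC II at 260.2 and 175.4 CPM, Mac V at 197.5 and 221.03 CPM and B cells at 220.3 and 114.3 CPM, which overlapped. NK cells were lowest for Nfkb2, at 1.70 and 1.83 CPM, and mast cell II for Rel, at 9.15 and 20.9 CPM.

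Nfkb1, which encodes the p105 precursor of p50, showed no such order. Its mean was highest in basophils, at 566 and 269.05 CPM, and lowest in neutrophils, at 59.4 and 77.3 CPM, and no neighbours in the order were separated by both animals. IL cells had 77.7 and 362.3 CPM, and NK cells 201.4 and 16.6 CPM. Per exon length, Rel had the highest level of the 4 subunit genes in 16 of 30 libraries, Nfkb1 in 8, Relb in 4 and Nfkb2 in 2. The length merges all annotated exons, 12061 bases for Nfkb1, 7466 for Rel, 4584 for Nfkb2 and 3885 for Relb, and the ranking depends on it. In DC III the order per kilobase of exon was Relb (219.98 and 267.7 CPM), Nfkb2 (119.97 and 107.4 CPM), Rel (93.7 and 86.3 CPM) and Nfkb1 (11.003 and 15.8 CPM), the same in both animals.

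DC III was compared with the average of DC I and DC II on the log2 scale, and Relb, Nfkb2, Rel, Nfkbia and Tnfaip3 were higher in DC III. These 5 of 10 genes, all in the same direction, stand beside a background of 7.22% of genes called (edgeR quasi-likelihood test, adjusted p below 0.05). The median log2 fold change was 2.80 over the 10 genes and -0.41 over all genes tested. The comparison uses the DC III libraries whose levels are given above, so it is no separate evidence of their order.

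Averaged over DC I and DC II, Relb had 40.1 and 14.5 CPM, against 855 and 1040 CPM in DC III, a log2 fold change of 5.72 (SE 1.19, adjusted p = 0.00595). Nfkb2 had 39.4 and 70.6 CPM against 550 and 492 CPM, a log2 fold change of 4.05 (SE 0.67, adjusted p = 0.000769). Rel had 146.1 and 135.3 CPM against 699 and 644 CPM, a log2 fold change of 2.79 (SE 0.63, adjusted p = 0.0103). For all 3 subunit genes both DC III values lay above all 4 values of DC I and DC II. The share of all genes without overlap here was not counted. Nfkb2 and Relb passed the test in every alternative fit and in each fit without 1 library of these subtypes, whereas Rel missed it without the female DC I library (adjusted p = 0.0520). In the shared run DC III had 788 and 1040 CPM of Relb, 644 and 492 CPM of Nfkb2, and 869 and 644 CPM of Rel, with 2 female and 11 male cells.

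Among the inhibitors, Nfkbia had 415 and 876 CPM in the average of DC I and DC II against 1942 and 3806 CPM in DC III, a log2 fold change of 2.81 (SE 0.53, adjusted p = 0.00274). Tnfaip3 had 9.02 and 34.2 CPM against 145.1 and 218.3 CPM, a log2 fold change of 4.02 (SE 0.79, adjusted p = 0.00395). The groups did not overlap for either gene, and the share of all genes without overlap was not counted. Nfkbia missed the threshold with voom (adjusted p = 0.273) and without the male DC III library (0.0581), and Tnfaip3 in the shared run (0.0900) and in a fit of these 3 subtypes alone (0.0562). Nfkbiz, at 80.003 and 7.03 CPM in DC III, did not pass the test, with a log2 fold change of 0.05. Of the 10 immediate early genes, described above, 4 were called lower in DC III and 0 higher, beside 7.22% of all genes called.

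The receptors and the ligand did not pass the edgeR test in DC III. Tnfrsf1b had 266.8 and 249.5 CPM against 165.2 and 30.4 CPM, a log2 fold change of 2.89 (SE 0.89, adjusted p = 0.0522), and the groups overlapped through the female DC II library. It passed in 6 of the 11 alternative fits. Tnfrsf1a had 21.2 and 14.2 CPM in DC III against 83.1 and 159.4 CPM in DC I and 173.8 and 92.6 CPM in DC II. Its log2 fold change was -2.59 (SE 0.87, adjusted p = 0.0751). The groups did not overlap for Tnfrsf1a, a trait whose share over all genes was not counted. With DESeq2 Tnfrsf1a passed as lower in DC III (log2 fold change -2.39, adjusted p = 0.00642). Tnf had 0.498 and 11.7 CPM in DC III, with all its reads from 1 cell in each animal, and an adjusted p of 0.417. Nfkb1 had a log2 fold change of 0.15. The male DC I cell rich in Sftpc reads touches this comparison, and without it the same number of the 10 genes, 5, passed.

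In single DC III cells reads of the subunit genes occurred together. All 22 cells kept a read of Relb, Nfkb2, Rel and Nfkbia after thinning (100% of 11 cells in each animal, exact 95% interval 71.5% to 100%). Relb ranged from 95 to 1793 CPM in the female and from 245.6 to 1480 CPM in the male, with medians of 906 and 999 CPM. With at least 10 CPM of each, 11 of 11 female and 10 of 11 male cells carried Relb, Nfkb2 and Rel. A Relb read was kept in 31.2% and 4.17% of DC I cells and in 45.5% and 35.7% of DC II cells.

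**Figure D2:**
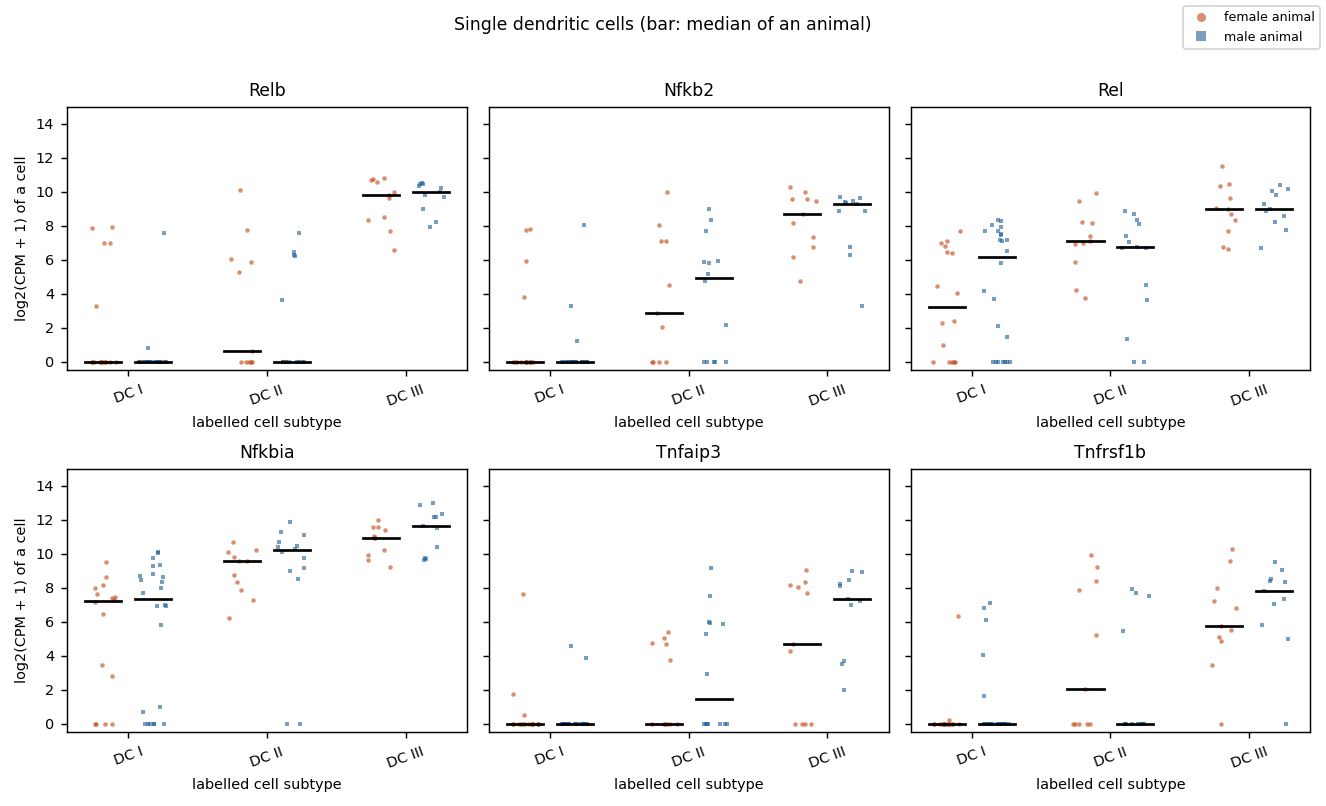
Level of 6 genes in each dendritic cell as log2(CPM + 1), by labelled subtype and animal, with a bar at the median of each animal. The Relb medians were 906 and 999 CPM in DC III, and most DC I cells had no Relb read.

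Promoter sequence was read for those of the 10 genes that had an entry, in windows of 250 bases before each start site (RefSeq, GRCm38.p6). The table held 10 windows for 7 of the 10 genes, as it lists several start sites for Nfkb2 and Tnfaip3, and for Nfkbiz, Nfkb1 and Relb there was no entry. The search used the 10-letter kappaB consensus by name on both strands, and overlapping matches were merged. It matched in 6 of the 10 windows, those of Nfkbia and Rel, 1 of the 2 of Tnfaip3 and all 3 of Nfkb2. No match lay in the windows of Tnf, Tnfrsf1a or Tnfrsf1b. Of 32851 mouse windows of this length, 1281 (3.90%) hold a match. A looser form of the pattern, with 5 free letters, matched in every window read, with 1 match for Tnf, 1 for Tnfrsf1a and 3 for Tnfrsf1b. That form occurs in 45.8% of mouse windows. Whether matches go with the differences in DC III was not tested, and Relb had no window. The Nfkbia window lies at chr12:55492648-55492897 on the minus strand, directly before the gene at chr12:55489410-55492647. It is printed whole, 5′ to 3′, with the match in capitals, and it ends at the last base before the start site.
Nfkbia window: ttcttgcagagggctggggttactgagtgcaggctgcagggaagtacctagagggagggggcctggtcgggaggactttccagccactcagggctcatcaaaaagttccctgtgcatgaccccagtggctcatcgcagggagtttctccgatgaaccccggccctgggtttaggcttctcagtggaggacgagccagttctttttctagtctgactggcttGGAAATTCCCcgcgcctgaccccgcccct
For the other genes 30-base stretches are shown to compare the matched letters, for Nfkb2 only the first of its 4 merged matches. The Tnfaip3 stretches lie at chr10:19015516-19015545 and chr10:19015411-19015440 (minus strand), the Nfkb2 stretch at chr19:46304688-46304717 (plus strand) and the Rel stretch at chr11:23771042-23771071 (minus strand).
Tnfaip3 first: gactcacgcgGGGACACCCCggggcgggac
Tnfaip3 second: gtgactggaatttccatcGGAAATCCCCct
Nfkb2: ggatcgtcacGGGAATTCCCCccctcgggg
Rel: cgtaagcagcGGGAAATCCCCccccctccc
The match in Nfkbia began 29 bases before its start site, the second in Tnfaip3 12 bases, the printed one in Nfkb2 39 and that in Rel 92 bases before. The other Nfkb2 matches lay 11 bases before the same site and in the windows of its other start sites, and they are not printed. In the gene models the Nfkb2 window shown in part lies wholly within an exon of Nfkb2 and almost all of the Tnfaip3 window lies inside Tnfaip3, so neither lies only upstream of its gene. The other windows of Nfkb2 and Tnfaip3 and that of Tnfrsf1a lie wholly inside their genes as well. Matches are letters in a window, and binding of a factor was not measured.

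Mast cells and basophils, both granulocytes with IgE receptors, differed in 2 of the 10 genes, Nfkbia and Tnfrsf1a, both lower in mast cells, beside a background of 1.71% of genes called. Nfkbia had 491 and 833 CPM in female and male mast cells against 2660 and 5492 CPM in basophils, a log2 fold change of -2.85 (SE 0.68, adjusted p = 0.0328). Tnfrsf1a had 0 reads in mast cells and passed at an adjusted p of 0.00436. The basophil side of that call rests on 42 reads in all, 39 of them from 1 male cell. Both calls were lost in the shared run, at adjusted p of 0.113 for Nfkbia and 0.199 for Tnfrsf1a, and without the male basophil library, at 0.312 and 0.320. They were also lost without the female mast cell library, at 0.242 and 0.0841. Nfkbia missed the threshold without the male mast cell library (0.143) and in a fit of mast cells and basophils alone (0.0559), and Tnfrsf1a with voom (0.0630).

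Other genes were apart in both animals and did not pass the edgeR test over all subtypes. Tnf had 390.5 and 292.8 CPM in mast cells against 39.3 and 46.1 CPM in basophils, a log2 fold change of 2.79 (SE 1.68, adjusted p = 0.439). Tnfaip3 had 42.6 and 56.5 CPM against 557 and 265.6 CPM, a log2 fold change of -3.23 (SE 1.00, adjusted p = 0.109). Nfkb1 had 74.3 and 102.7 CPM against 566 and 269.05 CPM, a log2 fold change of -2.41 (SE 0.84, adjusted p = 0.152). Tnfaip3 passed with DESeq2 (adjusted p = 0.00447), with voom (0.000149) and in a fit of mast cells and basophils alone (0.0326). Nfkb1 passed with DESeq2 (0.0309) and voom (0.000638), and Tnf with voom (0.0376) and in the fit of these subtypes alone (0.0436). Groups did not overlap for these 3 genes or for Nfkbiz, and they overlapped for Tnfrsf1b, Nfkb2, Rel and Relb. With 2 values on each side this is description only, as the share of all genes without overlap was not counted. In single basophils, 16 of 34 female and 10 of 19 male cells carried at least 10 CPM of Tnfaip3, Nfkbiz and Nfkb1 together. Of the 10 early genes 0 were called between these subtypes, beside 1.71% of all genes.

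**Figure D3:**
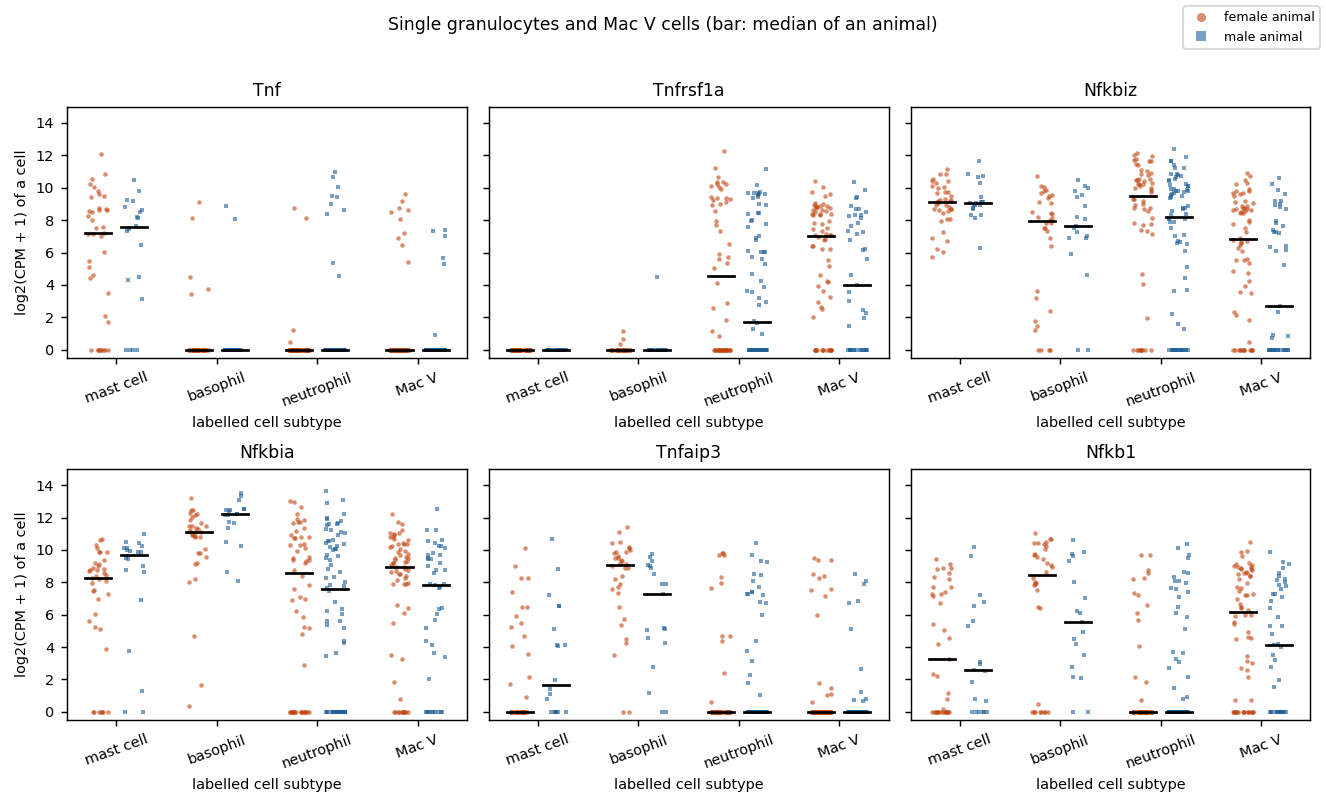
Level of 6 genes in each mast cell, basophil, neutrophil and Mac V cell as log2(CPM + 1), by animal, with a bar at the median of each animal. Most mast cells had Tnf reads, with medians of 145.4 and 188.8 CPM, while most basophils, neutrophils and Mac V cells had none.

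Between the macrophage groups Mac IV, Mac III and Mac V none of the 10 genes passed the edgeR test. Mac IV against Mac III had 0 of 10 called, beside a background of 0.263% of genes, Mac IV against Mac V had 0 beside 0.167%, and Mac III against Mac V had 0 beside 0.442%. At an unadjusted p below 0.05 the counts were 2, 0 and 2, beside 1231, 1660 and 1467 of all 15600 genes. DESeq2 called 1, 0 and 1 of the 10, beside 496 of 14170, 917 of 14520 and 910 of 14170 genes. The voom fit called 3, 4 and 5, beside 2318, 1972 and 2573 of 15600 genes. Each group's libraries enter 2 of these comparisons, so the comparisons share samples.

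In Mac IV against Mac III, Nfkbiz and Nfkbia had the largest fitted differences of the 10 genes. Nfkbiz had 113.3 and 202.6 CPM in Mac IV, 11.4 and 11.8 CPM in Mac III, and 250.8 and 150.1 CPM in Mac V. Mac III was below both others in both animals, a trait whose share over all genes was not counted. The log2 fold change was 3.73 (SE 0.96, adjusted p = 0.138) for Mac IV against Mac III and -4.16 (SE 0.98, adjusted p = 0.0622) for Mac III against Mac V. In fits of these subtypes alone the adjusted p was 0.00641 and 0.00651. Nfkbia had 763 and 1324 CPM in Mac IV, 240.9 and 249.1 CPM in Mac III and 692 and 512 CPM in Mac V, with adjusted p of 0.340 and 0.526 for the same comparisons. In fits of the compared subtypes alone its adjusted p was 0.0214 and 0.0347, and with voom 0.000783 for Mac IV against Mac III. Early genes ran alongside, with a sum of 6426 and 8949 CPM in Mac IV, 1661 and 1217 CPM in Mac III and 9345 and 8874 CPM in Mac V. Of the 10 early genes, 3 were called higher in Mac IV than in Mac III, beside 0.263% of all genes. In Mac III against Mac V 4 were called lower, beside 0.442% of all genes. The part of the early genes in the values of Nfkbiz and Nfkbia was not tested.

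Tnf separated Mac IV and Mac III from Mac V without passing the test. Mac IV had 95.04 and 73.35 CPM and Mac III 74.87 and 73.45 CPM, against 29.1 and 7.41 CPM in Mac V, with adjusted p of 0.775 and 0.881. Tnfrsf1b ran the other way, with 204.6 and 100.8 CPM in Mac IV and 268.2 and 274.7 CPM in Mac III against 596 and 597 CPM in Mac V. Its log2 fold change was -2.08 (SE 1.10, adjusted p = 0.515) for Mac IV against Mac V. Rel had 66.6 and 84.7 CPM in Mac IV and 78.9 and 72.7 CPM in Mac III against 197.5 and 221.03 CPM in Mac V, with adjusted p of 0.483 and 0.566. Both Mac V values were above those of the other groups for Tnfrsf1b and Rel. Mac V also did not overlap either group for Tnfrsf1a, Nfkbia, Tnfaip3, Nfkb1 and Nfkb2, and it overlapped Mac IV for Nfkbiz and Relb. With 2 values in each group this is description only, as the share of all genes without overlap was not counted.

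Neutrophils against Mac V had 0 of 10 genes called, beside a background of 0.404%, and B cells against T cells had 0 beside 0.0962%. At an unadjusted p below 0.05 there was 1 gene in each, Nfkbiz and Rel, beside 2026 and 1460 of all 15600 genes. DESeq2 called 1 in each, beside 1417 of 14520 and 1008 of 14869 genes. The voom fit called 1 and 0, beside 843 and 579 of 15600 genes. Nfkbiz had 1111 and 629 CPM in neutrophils against 250.8 and 150.1 CPM in Mac V, a log2 fold change of 2.56 (SE 0.91, adjusted p = 0.286). Rel had 220.3 and 114.3 CPM in B cells against 58.7 and 10.4 CPM in T cells, a log2 fold change of 2.12 (SE 0.79, adjusted p = 0.465). Neither pair of groups overlapped, a trait whose share over all genes was not counted. Tnfaip3 was at 16.7 and 15.8 CPM in B cells against 49.5 and 47.1 CPM in T cells (adjusted p = 0.624).

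**Figure D4:**
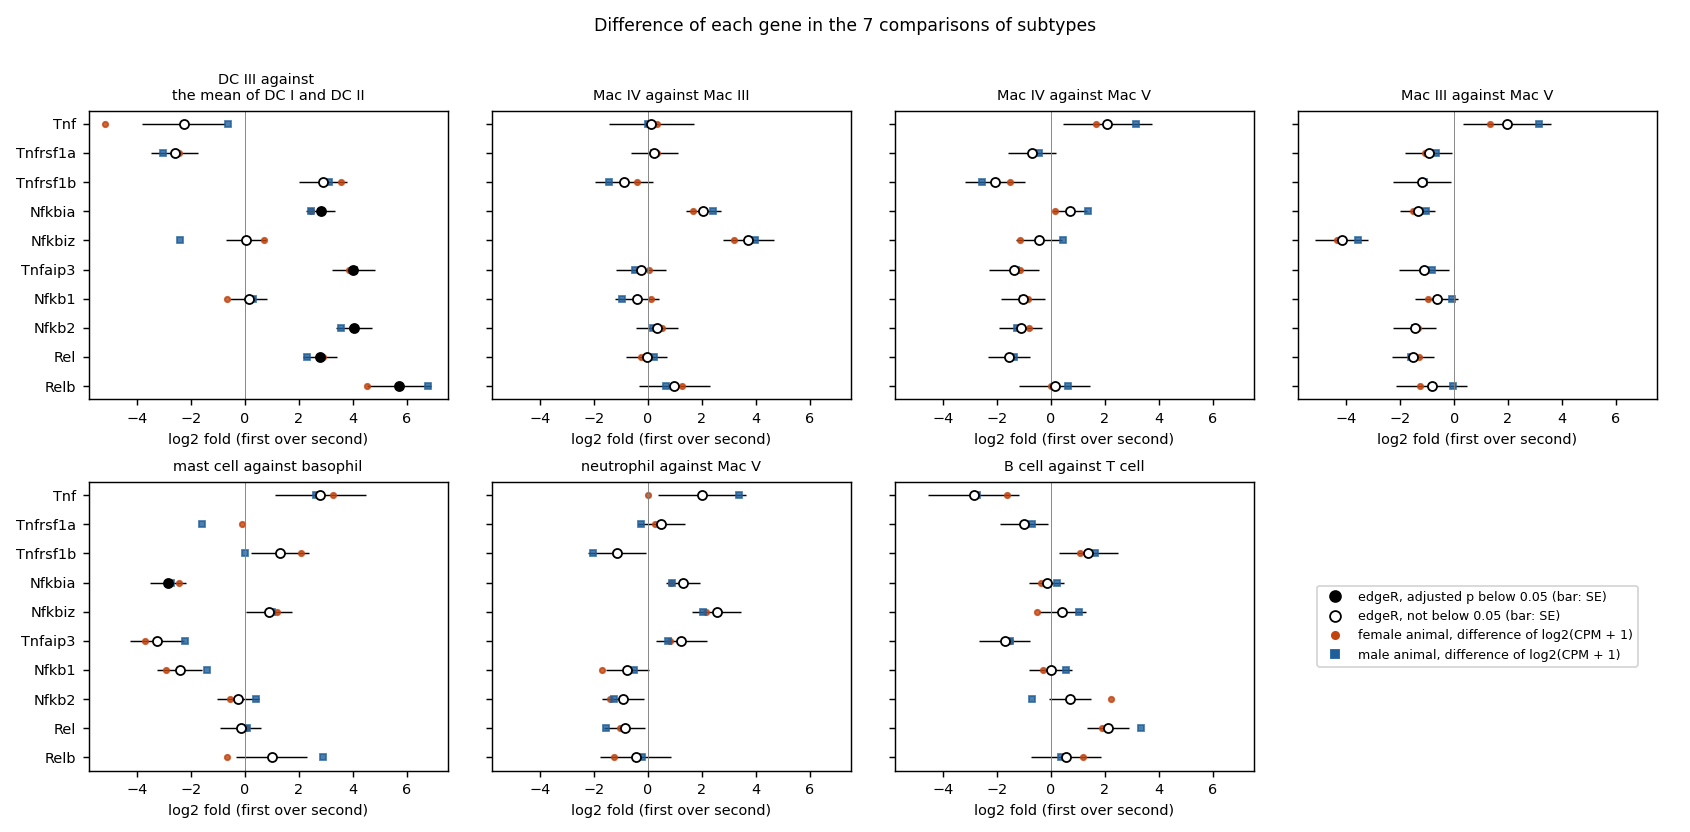
Difference of each gene in 7 comparisons, as the log2 fold change of edgeR with its standard error and as the log2(CPM + 1) difference within each animal. The 5 genes called in DC III lay right of 0 in both animals, and the fitted value of Tnfrsf1a in mast cells against basophils is left out because mast cells had 0 reads.

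A list of 27 other NF-kappaB pathway genes was read in the same fits. In it 9 of 27 genes (33.3%) differed among subtypes, near the 34.3% of all genes. For DC III against DC I and DC II the list's median log2 fold change was 0.89, against -0.41 over all genes tested. There 5 of the 27 were called (18.5%), all higher, beside 7.22% of all genes tested. They were Nfkbib, a further IkappaB inhibitor, at 719 and 738 CPM against 93.2 and 89.8 CPM, Ikbkb, a kinase that marks IkappaB for breakdown, at 538 and 324.3 CPM against 97.5 and 156.8 CPM, and the signalling adaptor Traf1, at 1709 and 1568 CPM against 84.7 and 75.1 CPM. The ubiquitin ligase gene Birc2 had 121.45 and 274.1 CPM against 11.2 and 16.98 CPM, and Tank, a regulator that binds TRAF proteins, had 743 and 341.1 CPM against 39.4 and 26.2 CPM. The groups did not overlap for any of these 5, and how many of all genes share this was not counted. In the other 6 comparisons 0 of 27 were called, beside 0.0962% to 1.71% of all genes tested.

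Within cells of 1 subtype and 1 animal, Tnf, Nfkbia and Nfkbiz were positively related in Mac IV and, more weakly, in Mac III. Spearman's rho across 63 female and 79 male Mac IV cells was 0.40 and 0.45 for Tnf with Nfkbia, 0.31 and 0.49 for Nfkbia with Nfkbiz and 0.30 and 0.29 for Tnf with Nfkbiz. Nfkbia with the sum of the early genes gave 0.52 and 0.54, and Nfkbiz with that sum 0.41 and 0.55. In Mac III the same pairs gave 0.05 and -0.01 for Nfkbia and 0.04 and -0.0003 for Nfkbiz, and in Mac V -0.26 and 0.10 for Nfkbia and -0.14 and -0.09 for Nfkbiz. These are descriptions across cells that share an animal, and depth also moved with some of the genes, with rho of Nfkbia and reads per cell at 0.17 and 0.15. In neutrophils, 56 and 78 cells, Nfkbiz with the early genes gave 0.38 and 0.34 and Nfkbia with Nfkbiz 0.29 and 0.27. In Mac V, 66 and 45 cells, the animals differed, with 0.45 and -0.05 for Nfkbia and Nfkbiz.

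**Figure D5:**
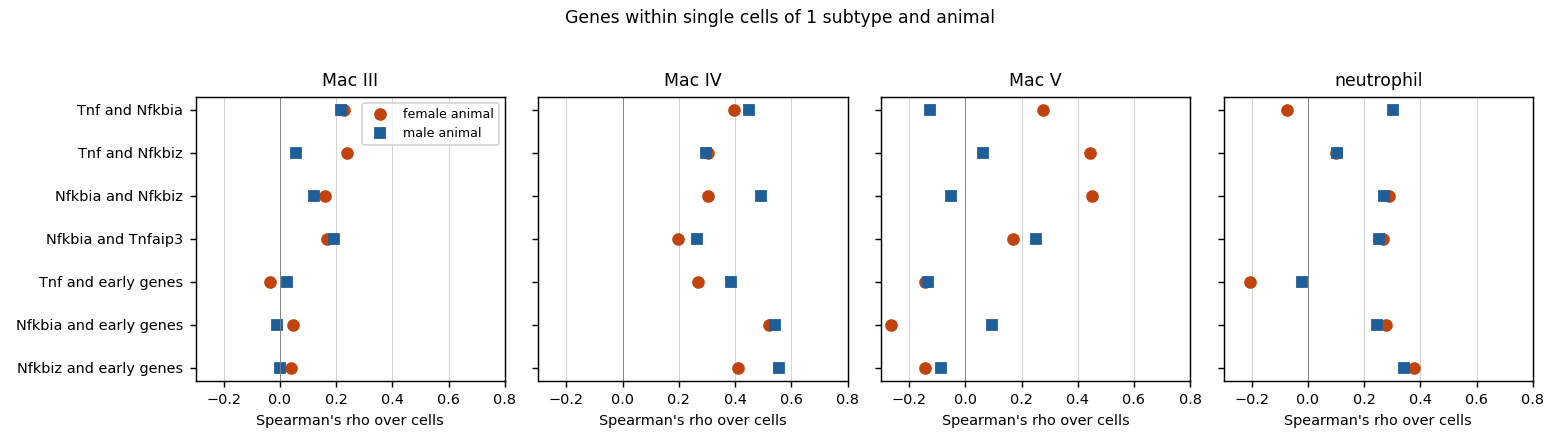
Spearman's rho between genes across single cells of a subtype, 1 point for each animal. Tnf, Nfkbia and Nfkbiz were positively related in Mac IV and, more weakly, in Mac III of both animals, while in Mac V Nfkbia and Nfkbiz gave 0.45 and -0.05.

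Across the 30 summed libraries the closest pairs among the 10 genes were Nfkb2 and Relb (Pearson's r 0.72 on log2(CPM + 1)), Nfkbia and Tnfaip3 (0.69), Tnfrsf1b and Rel (0.65) and Nfkb2 and Rel (0.64). The libraries of 1 animal share their source and those of 1 subtype its cells, so these are descriptions over 15 subtypes. The 3 genes most like each member, among those at 20 CPM or more in some subtype, were named by the same measure. For Tnf they were Tpbgl (0.65), Rgs18 (0.64) and Map1lc3a (0.64), for Tnfrsf1a Vav3 (0.79), Atp2b1 (0.79) and Ttc7 (0.78), and for Tnfrsf1b Clec7a (0.85), Mir22hg (0.82) and Ifi204 (0.81). Nfkbia was closest to Smad3 (0.71), Tnfaip3 (0.69) and Stat4 (0.65), Nfkbiz to Tcp11 (0.75), Junb (0.74) and Mfsd6 (0.73), and Tnfaip3 to Nfkbia (0.69), Gadd45b (0.67) and Selplg (0.67). Among the subunit genes, Nfkb1 was closest to Echs1 (0.70), Pank2 (0.68) and Mdp1 (0.68), and Nfkb2 to Fbxo6 (0.76), Wnk1 (0.73) and Tmem123 (0.72). Rel was closest to 5430437J10Rik (0.79), Smg1 (0.76) and Art2a-ps (0.76), and Relb to Loxl3 (0.78), Clu (0.77) and Mif4gd (0.76). Tnf had the lowest r with its closest gene and Tnfrsf1b the highest.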

How the data were processed

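The authors deposited raw read counts per gene and cell, whole numbers without molecular identifiers. Per the submitters' processing notes STAR 2.5.2b and HTSeq 0.10 were used. These notes name GRCh38, a human build, for mouse samples, and the annotation is not given in the sources used here, so coordinates and exon lengths (GENCODE M21 and RefSeq, GRCm38) are not those of the counting. Overlapping genes cannot be separated. Libraries were prepared in plates with the Tn5 transposase, per the labels' protocols.

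Counts were summed per animal and labelled subtype and scaled to CPM. All 15 subtypes with at least 5 cells per animal entered 1 fit of edgeR 4.0.16 (R 4.3.3): TMM scaling, the filterByExpr filter (15600 genes), quasi-likelihood F tests, Benjamini-Hochberg adjustment and a threshold of 0.05. The common biological coefficient of variation was 1.15. Alternatives included DESeq2 1.42.0 and voom in limma 3.58.1. Tests run on simulated data recovered 0 of 200 genes changed 8-fold and 51 of 200 changed 32-fold between Mac IV and Mac III. Shares of cells used 100000 reads per cell, and 5 shallower cells were left out. Intervals are exact (Clopper-Pearson or Poisson) at 95%, and they and the limit of 3 reads cover counting error only. Libraries of the same animal are paired by the animal label, and their deviations from the subtype means had a median correlation of 0.047 over 105 pairs of subtypes.

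The 10 genes, the 27 pathway genes and the 10 early genes were chosen with earlier results of these data known. Named besides the 10 were the pathway genes called and the 3 genes most like each, over 11134 genes.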

Additional observations from a re-analysis of the deposited data

Results flagged for a closer look

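In 14 of 70 pairs of gene and comparison the female and male animals lay on opposite sides. The values are differences on the log2(CPM + 1) scale, female first, and these differences between 1 female and 1 male mouse were not tested. For DC III against DC I and DC II they were 0.72 and -2.41 for Nfkbiz and -0.66 and 0.32 for Nfkb1. For Mac IV against Mac III they were 0.34 and -0.0019 for Tnf, 0.037 and -0.48 for Tnfaip3, 0.11 and -0.96 for Nfkb1, and -0.24 and 0.22 for Rel. Nfkbiz in Mac IV against Mac V gave -1.14 and 0.43. Mast cells against basophils gave -0.56 and 0.44 for Nfkb2 and -0.66 and 2.90 for Relb. Tnfrsf1a in neutrophils against Mac V gave 0.26 and -0.27. B cells against T cells gave -0.35 and 0.24 for Nfkbia, -0.52 and 1.03 for Nfkbiz, -0.29 and 0.54 for Nfkb1, and 2.21 and -0.71 for Nfkb2.

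The only Mac I cell, from the male, entered no comparison and had reads of 7 of the 10 genes. It held 57.8 CPM of Tnf, 159.4 CPM of Tnfrsf1b, 1473 CPM of Nfkbia, 299.2 CPM of Nfkbiz, 27.05 CPM of Tnfaip3, 70.5 CPM of Nfkb1 and 178.7 CPM of Rel, at a depth of 2440163 reads.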

How the results depend on the processing

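No difference of a called gene changed sign. In DC III the number of the 10 genes called ran from 4 to 7 across alternatives. The number called in Mac IV against Mac III was 1 with DESeq2, 3 with voom and 2 with only the subtypes compared. In Mac IV against Mac V it was 4 with voom and 1 with only the subtypes compared. In Mac III against Mac V it was 1 with DESeq2, 5 with voom, 1 after scaling cells to an equal total and 4 with only the subtypes compared. In mast cells against basophils it was 4 with DESeq2, 4 with voom and 0 in the shared run, and it was 2 with only the subtypes compared, where the genes called were Tnf and Tnfaip3 and Tnfrsf1a was not among the genes fitted. In neutrophils against Mac V it was 1 with DESeq2 and 1 with voom, and in B cells against T cells 1 with DESeq2. Leaving out 1 library at a time leaves 1 animal in a subtype, so only effect sizes are given here. The log2 fold change in DC III then ran from 5.34 to 6.94 for Relb and from 3.86 to 4.41 for Nfkb2. It ran from 2.53 to 3.36 for Rel, 2.06 to 3.36 for Nfkbia and 3.51 to 5.10 for Tnfaip3. Nfkbia in mast cells against basophils gave -3.27 to -2.06. With the animal as a replicate block the number called was 9 for any difference, 5 for DC III and 2 for mast cells against basophils. It was 0 for the other 5 comparisons, and the block changed no call of a member.

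Over all genes the counts were 4243 to 8826 across alternatives against 5352 for any difference, 564 to 3912 against 1126 for DC III, 9 to 2318 against 41 for Mac IV and Mac III, 7 to 1972 against 26 for Mac IV and Mac V, and 27 to 2573 against 69 for Mac III and Mac V. They were 97 to 2546 against 1.71% of 15600 for mast cells and basophils, 12 to 1417 against 63 for neutrophils and Mac V, and 14 to 1008 against 15 for B and T cells. The cause was not tested. RLE factors moved the median of all genes by 0.17 in DC III, 0.15 in Mac IV against Mac III, and 0.22 in Mac IV against Mac V and in neutrophils against Mac V on the log2 scale, and of the calls in Mac IV against Mac V 15 were higher and 11 lower, against 15 and 7 with RLE factors, 15 and 21 after scaling cells to an equal total, 15 and 19 with the animal block and 79.7% higher with DESeq2. In Mac IV against Mac III 33 were higher and 8 lower, against 28 and 13 after scaling cells to an equal total. Fits without the NK cell libraries or without the DC I cell rich in Sftpc were added after seeing the data. Of 150 levels, 51 moved by more than the spread between animals when only the shared run was used. Of 150 shares of cells with a read, 92 moved by more than that spread with a limit of 5 reads (median ratio 0.781), 64 without thinning (1.13) and 39 at 50000 reads.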
